A study of Mus musculus with 12 samples.

Results

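The Notch genes described here are the receptors Notch1 and Notch2, the ligands Dll1, Dll3 and Jag1, the receptor-modifying enzyme Mfng, and the transcription factors Hes1, Hes5, Hes6 and Hey1. They were chosen by symbol, and all 10 were found among the 43432 genes listed for each library, of which 42548 matched the GENCODE M21 annotation of mm10. Total mRNA and polysome mRNA were sequenced from adult neural stem cells (NSCs) of the mouse subventricular zone, the stem cell niche beside the lateral ventricles. The cells came from male wild-type C57BL/6 mice aged 6 to 8 weeks and were grown for 4 days, with fresh medium on day 2, with EGF and bFGF, growth factors that keep them dividing. The groups differed in folic acid: low (LF, 1.5 µM), medium (MF, 10 µM, the reference) and high (HF, 80 µM). Polysome mRNA was poly(A) RNA from gradient fractions with more than 3 ribosomes per mRNA, after cycloheximide had fixed ribosomes in place. Each of the 6 groups (3 doses, 2 fractions) had 2 libraries. The labels do not say that replicates came from separate cultures or animals, so p-values measure the spread between these libraries.

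Notch receptors are cut in steps after a ligand on a neighbouring cell binds them, and the freed intracellular part joins RBPJ in the nucleus to switch on Hes and Hey genes. Hes1, Hes5 and Hey1 encode repressors that hold back proneural factors, and in the adult subventricular zone Notch signals are known to keep stem cells from differentiating. Hes6 differs from its relatives: it is known to oppose Hes1 and to favour neuronal differentiation, and it is found with Dll1 and Dll3 in cells that are committing.

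The total libraries held 20506797 to 23593252 estimated read pairs each, and the polysome libraries 24193468 to 28170296. Polysome LF replicate 2 stood apart from its partner: 15.8% of the 9586 genes with a mean CPM (counts scaled to library size) of at least 10 differed more than 2-fold between the polysome LF libraries, against 0.0209% to 0.313% in the other groups, and Notch1, Hes5 and Hes6 were among them. The 10 listed NSC markers, such as Nes, Sox2 and Fabp7, summed to between 6670 and 8890 TPM (the deposited level, which is per length of transcript). Vim, on the same list, alone had 3753 to 5621 TPM. The 5 endothelial markers summed to between 1.02 and 2.08 TPM with 1 at 0 in every library, and the 5 microglial markers to between 5.03 and 13.5 TPM with 2 at 0. Other lists were higher. The 5 astrocyte markers summed to between 225 and 454 TPM, and the 7 oligodendrocyte lineage markers to between 157 and 432. The 7 mural and mesenchymal markers summed to between 66.7 and 750 TPM, and the 8 neuroblast and neuron markers to between 61.2 and 195. A few genes carried much of each sum. Aldoc had 215 to 425 TPM, while the astrocyte markers Gfap, Aqp4 and S100b had at most 1.0 in any library. Olig1 had 87.0 to 289 TPM, while Sox10 and Cspg4 stayed under 1. Acta2 had 28.8 to 414 TPM, while Rgs5, Myh11 and Col1a1 stayed under 1. In such bulk samples, fewer cells of a type and less RNA per cell cannot be told apart.

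The DNA just upstream of these genes is shown for Hes5, the only searched member with an RBPJ motif, and for Hes6, Dll1 and Dll3, which were lower in polysome mRNA of HF than of MF. RefSeq windows on GRCm38.p6 were at hand for 7 of the 10 members and not for Hes1, Hey1 and Mfng. Each line gives the 250 bases before an annotated start, read 5′ to 3′ on the gene's strand. Capitals mark TGGGAA (RBPJ), CACNAG (the N-box of Hes proteins) and CACGNG (the class C E-box of Hes and Hey proteins), searched on both strands. The Hes5 window is chr4:154960673-154960922 on the plus strand, and the others lie on the minus strand, Hes6 at chr1:91414039-91414288, Dll1 at chr17:15376933-15377182 and Dll3 at chr7:28301786-28302035.
Hes5: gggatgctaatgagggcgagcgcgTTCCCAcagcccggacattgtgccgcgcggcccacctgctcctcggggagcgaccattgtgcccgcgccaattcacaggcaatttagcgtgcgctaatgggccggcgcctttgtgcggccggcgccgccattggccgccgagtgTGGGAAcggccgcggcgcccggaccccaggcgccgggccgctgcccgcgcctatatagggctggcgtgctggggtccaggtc
Hes6: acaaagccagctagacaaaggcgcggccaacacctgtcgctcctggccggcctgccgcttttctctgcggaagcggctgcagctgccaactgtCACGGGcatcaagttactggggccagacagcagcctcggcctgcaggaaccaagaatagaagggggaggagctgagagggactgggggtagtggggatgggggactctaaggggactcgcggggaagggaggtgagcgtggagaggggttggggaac
Dll1: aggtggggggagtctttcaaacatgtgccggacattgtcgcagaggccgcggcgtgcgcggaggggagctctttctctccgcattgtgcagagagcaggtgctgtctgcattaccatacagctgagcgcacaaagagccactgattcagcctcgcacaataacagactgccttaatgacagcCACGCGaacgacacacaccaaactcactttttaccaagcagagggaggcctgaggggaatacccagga
Dll3: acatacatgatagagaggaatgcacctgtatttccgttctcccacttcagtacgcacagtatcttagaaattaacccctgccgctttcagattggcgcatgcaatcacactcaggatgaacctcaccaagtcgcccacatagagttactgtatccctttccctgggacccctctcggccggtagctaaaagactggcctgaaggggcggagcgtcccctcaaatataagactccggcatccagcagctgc

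The Hes5 window held TGGGAA 2 times, once on each strand, beginning 226 and 82 bases before the start. It was the only one of the 9 member windows with that motif, which occurred in 21.6% of all 32851 windows of this length. A class C E-box stood in the Hes6, Dll1, Notch2 and Jag1 windows (23.5% of all windows have one), and an N-box in the Notch1 and Notch2 windows and in a second Hes6 window (36.7% of all windows). The Dll3 window held none of these letters. CACGAG would fit both of the last 2 patterns, and no member window held it. These matches describe sequence only, and no binding was measured.

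In total mRNA, Hes6 and Notch1 were the highest members and Dll3 the lowest. Hes6 lay between 141 and 172 TPM over the 6 total libraries (median 150.1), and Notch1 between 128 and 146 (median 132). These ranges overlapped, and each was above those of all other members. Jag1 (56.3 to 68.5 TPM), Hes1 (56.9 to 64.6) and Notch2 (50.9 to 63.7) followed, also with overlapping ranges. Below them, without overlap between neighbours, came Dll1 (34.5 to 39.3 TPM), Hey1 (28.1 to 33.8), Mfng (12.6 to 17.5), Hes5 (7.15 to 8.52) and Dll3 (3.08 to 3.85). Of the genes tested, 93.0% had a lower mean TPM in total mRNA than Hes6, 91.8% than Notch1 and 23.3% than Dll3.

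On mm10, the members not placed elsewhere in the text were annotated as protein-coding genes at chromosome 7, 28293553 to 28302238 (Dll3), chromosome 2, 137081456 to 137116644 (Jag1), chromosome 15, 78755882 to 78773475 (Mfng), and chromosome 16, 30064384 to 30067796 (Hes1). Hes6 lies at chromosome 1, 91411483 to 91414038, and Hey1 at chromosome 3, 8663359 to 8667256. None of these 6 overlaps another listed gene.

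The order differed in polysome mRNA. Hes6 was again highest, at 94.3 to 219 TPM (median 171), and did not overlap Hes1 (51.0 to 84.5). From Hes1 downward each member overlapped the next. Jag1 (44.2 to 76.6 TPM, median 56.6) and Hey1 (35.9 to 56.2, median 51.1) were above Notch1 (11.5 to 37.2, median 32.6) in mean level, the reverse of total mRNA, and Hey1 overlapped Notch1 in range. Notch2 (18.5 to 26.2 TPM), Dll1 (7.68 to 19.1), Mfng (6.39 to 17.8), Hes5 (1.62 to 6.91) and Dll3 (2.19 to 6.21) followed.

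**Figure D1:**
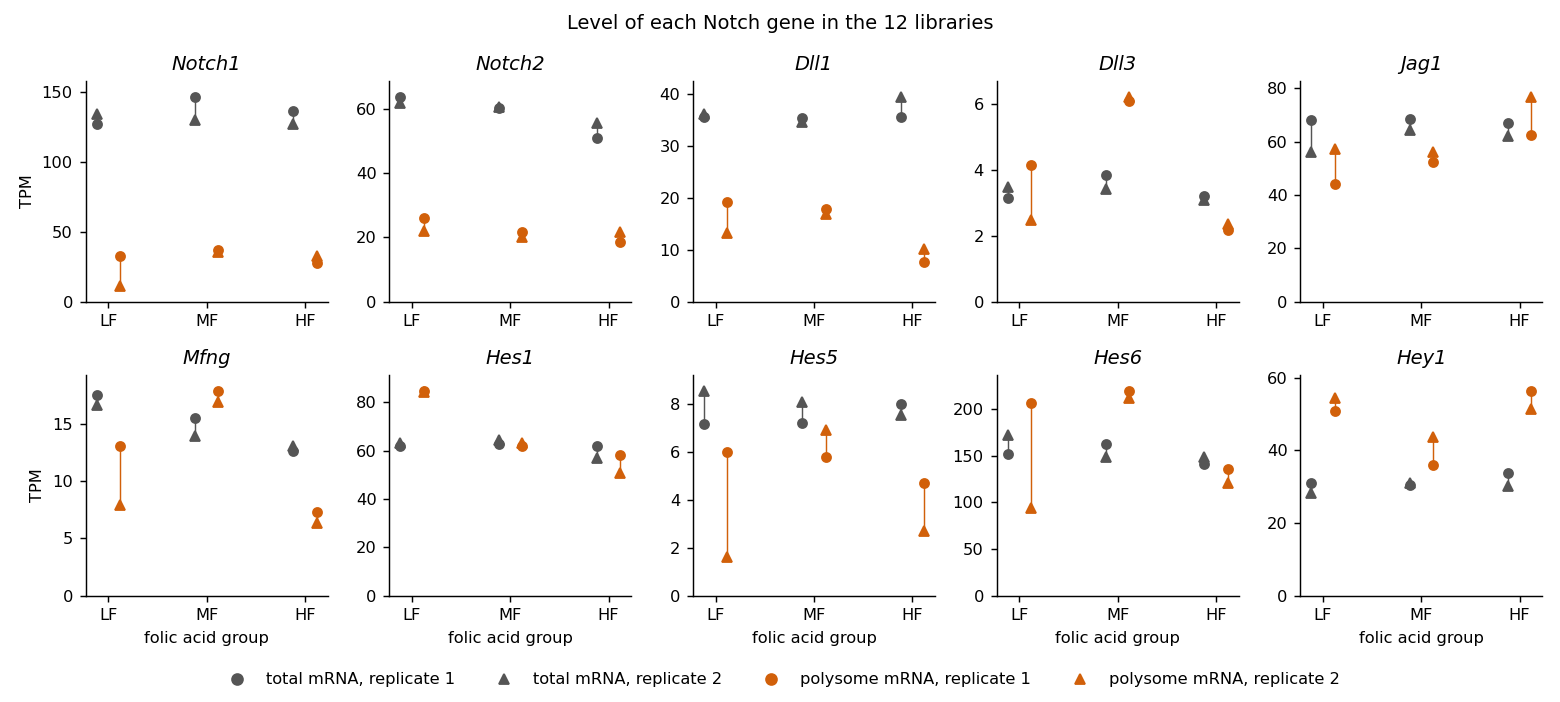
TPM of each of the 10 genes in LF, MF and HF, with total mRNA in grey and polysome mRNA in orange; circles are replicate 1 and triangles replicate 2, and lines join the 2 libraries of a group. Total mRNA is nearly level across doses for most members, while total Mfng and Notch2 are lowest in the HF libraries. Polysome Dll1, Dll3, Mfng and Hes6 are lower in both HF libraries than in both MF libraries.

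To ask how far each Notch mRNA was held on polysomes, polysome mRNA was compared with total mRNA over the 3 doses. Both receptors were under-represented on polysomes, with Notch1 at a ratio 3.57-fold and Notch2 at a ratio 2.2-fold below that of the average mRNA, while the ligands and the Hes and Hey factors lay on both sides. Of the 10 members, 3 were lower (Notch1, Notch2 and Dll1) and 3 higher (Dll3, Hes1 and Hey1) by edgeR's quasi-likelihood test, where a call needed both a fold above 1.2 and a Benjamini-Hochberg adjusted p under 0.05. This contrast moved most of the transcriptome: 71% of 14421 genes were called, 32.7% up and 38.4% down, so 6 of 10 members is near the background. Every ratio here is relative to the TMM-scaled library, since no absolute amount of RNA was measured.

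Notch1 had 127.71 and 134.76 TPM in total LF, 146.45 and 129.89 in total MF and 136.8 and 127.67 in total HF. Its polysome libraries held 32.89 and 11.49 TPM in LF, 37.22 and 35.91 in MF and 27.45 and 32.36 in HF. Every polysome library was far below every total library, and polysome LF replicate 2 was the lowest. The log2 ratio of polysome to total was -1.84 ± 0.196 (SE), with adjusted p = 1.02e-05 by edgeR. The gene (ENSMUSG00000026923, chromosome 2, 26457903 to 26516663, minus strand) shares exonic bases with the antisense gene 0610009E02Rik (1068 of 14232) and with Gm13568 (414). These neighbours had 3 to 18 and 0 counts in the total libraries but 1260 to 2446 and 154 to 265 in the polysome libraries, where Notch1 itself had 1831 to 6583. The strand setting used for counting is not given in the sources used here, so the split between Notch1 and its neighbours is uncertain. With their counts added to Notch1, an alternative chosen after seeing the data, the log2 ratio was -1.32 (adjusted p = 1.43e-05).

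Notch2 (ENSMUSG00000027878, chromosome 3, 98013527 to 98150361) overlaps no other listed gene. It had 63.69 and 61.89 TPM in total LF, 60.41 and 60.76 in total MF and 50.91 and 55.66 in total HF. In polysomes it had 26.18 and 21.98 TPM in LF, 21.86 and 20.21 in MF and 18.47 and 21.75 in HF. Polysome levels were below total levels in every library, and the log2 ratio was -1.14 ± 0.0735 (adjusted p = 2.82e-07). It was also the member whose ratio moved least with dose, from -1.22 ± 0.128 in MF to -1.10 ± 0.127 in LF and HF.

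Among the ligands, the ratios went in different directions. Dll1, the ligand that presents Notch signals to neighbouring cells, was lower on polysomes (log2 -0.95 ± 0.157, adjusted p = 0.000266). Dll3, which acts within the cell and is known to dampen Notch signalling rather than to activate it, was higher (0.39 ± 0.121, adjusted p = 0.0131). This mean over the doses rested mostly on MF. The Dll3 ratio was 1.06 ± 0.205 in MF, 0.19 ± 0.209 in LF and -0.07 ± 0.213 in HF, with no test per dose. Jag1, the ligand of the Jagged type, had a log2 ratio of 0.17 ± 0.0969 (adjusted p = 0.127). Dll1 (ENSMUSG00000014773, chromosome 17, 15367354 to 15376872) shares 867 of 4219 exonic bases with A930024N18Rik, which had 0 to 15 counts in any library. The fringe enzyme Mfng, which adds sugars to Notch and so tunes which ligand it answers, had -0.10 ± 0.117 (adjusted p = 0.466).

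Hey1 had the highest ratio of the members. It stood at 30.89 and 28.14 TPM in total LF, 30.42 and 31.1 in total MF and 33.82 and 30.28 in total HF. In polysomes it stood at 50.86 and 54.25 TPM in LF, 35.94 and 43.6 in MF and 56.18 and 51.32 in HF. All 6 polysome libraries were above all 6 total libraries, and the log2 ratio was 0.98 ± 0.0803 (adjusted p = 1.47e-06). Hes1, the repressor whose level oscillates in neural progenitors, was also higher (0.39 ± 0.0743, adjusted p = 0.000708). Its ratio was 0.71 ± 0.129 in LF, 0.27 ± 0.129 in MF and 0.19 ± 0.129 in HF, with no test per dose. In TPM, the polysome and total libraries of Hes1 overlapped in MF and in HF. Hes5, a classical direct target of Notch in neural progenitors, had -0.47 ± 0.256 (adjusted p = 0.121), at 28 to 137 polysome counts. Without polysome LF replicate 1, Hes5 was called lower (-0.81, adjusted p = 0.00033) and Jag1 higher (0.30, adjusted p = 0.000618). Hes5 (chromosome 4, 154960923 to 154962371) shares 433 of 1363 exonic bases with Gm20421, which had 0 counts in all libraries. Hes6 had 0.34 ± 0.149 (adjusted p = 0.0585), and was called higher without polysome LF replicate 2 (log2 0.49 ± 0.0574, adjusted p = 1.16e-06). It was also called higher in each alternative that kept every library, with DESeq2 (0.38, adjusted p = 0.0149), RLE size factors (0.38, adjusted p = 0.0257), no filter on low counts (0.40, adjusted p = 0.025) and the replicate block (0.58, adjusted p = 0.0191).

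**Figure D2:**
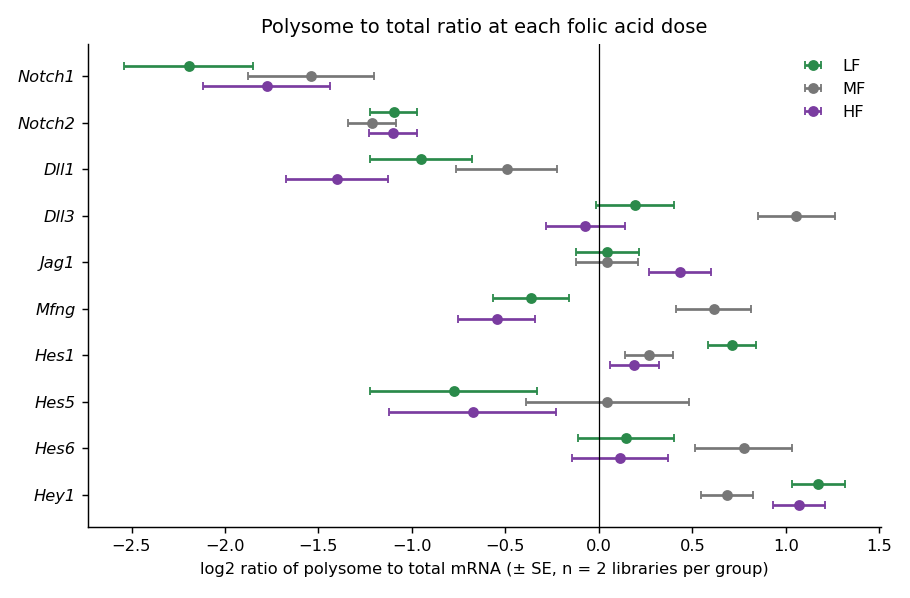
Log2 ratio of polysome to total mRNA (x axis) for each member in LF (green), MF (grey) and HF (purple), with bars of 1 standard error and 2 libraries per group and fraction. Notch1, Notch2 and Dll1 lie below 0 at every dose. Hey1, Hes1, Hes6 and Jag1 lie above 0, with Hes6 and Jag1 within 1 standard error of it at some doses. Dll3, Mfng, Hes6, Dll1, Hes5 and Notch1 are highest in MF.

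The ratio moved with transcript length across all genes. Among 936 genes with an effective length (the transcript length over which fragments can start) above 6000 bases, the median log2 ratio was -1.10 and 82.8% were called lower. Among 4171 genes up to 1500 bases it was 0.46, with 53.5% called higher. Notch1 (8961 bases) and Notch2 (10227 bases) belong to the longest group, in which 24.1% and 48.4% of the genes had a lower ratio than theirs. Jag1, at 5206 bases, stood higher than 81.4% of the 4065 genes between 3000 and 6000 bases, whose median was -0.51. Of the 5248 genes between 1500 and 3000 bases (median 0.05), 89.7% had a lower ratio than Hey1 (2121 bases), 67.5% than Dll3, 42.5% than Mfng and 17.8% than Dll1. Hes1, Hes6 and Hes5, the shortest members at 985 to 1179 bases, had ratios above those of 47.1%, 44.7% and 20.5% of genes of their length. The part of length in the members' ratios was not tested. Cell type markers also differed between the fractions. The 7 mural and mesenchymal markers summed to between 66.7 and 122 TPM in total mRNA and between 339 and 750 in polysome mRNA (4 of 5 tested called higher), and the 8 neuroblast and neuron markers to between 177 and 195 and between 61.2 and 112 (2 of 7 higher and 4 lower). The part of these markers was not tested either.

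**Figure D3:**
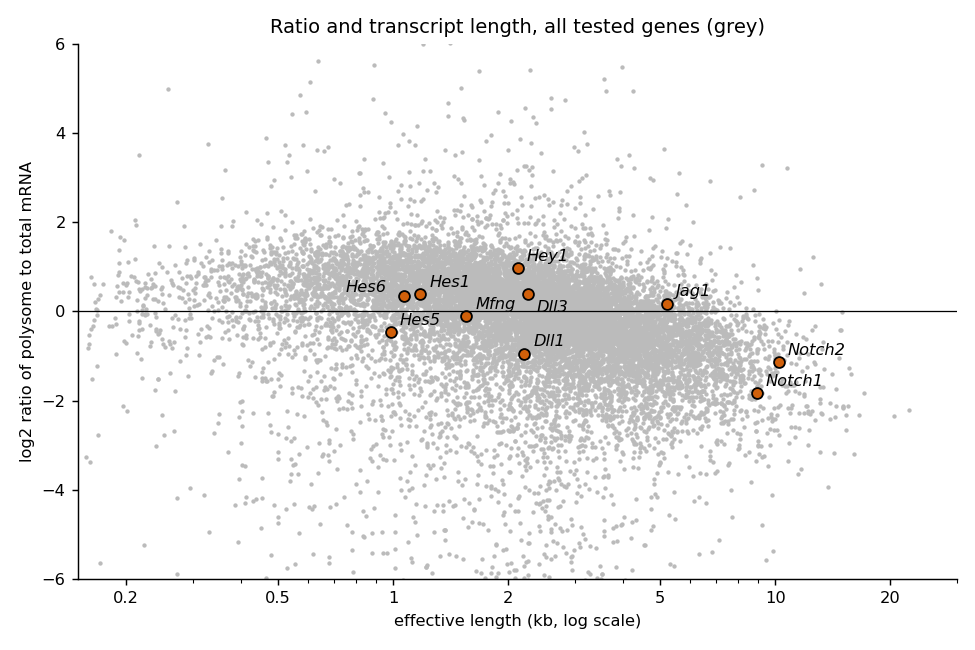
Effective length in kilobases (x, log scale) against the log2 ratio of polysome to total mRNA over the 3 doses (y) for the tested genes (grey) and the 10 members (orange); 257 genes lie outside the axes. The cloud slopes down with length, with Notch1 and Notch2 at the long end, and Hey1 and Jag1 in the upper part of the genes of their length.

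The other genes of the pathway on polysomes were taken from a list of 61, of which 51 were tested; 15 were higher and 24 lower, where 32.7% of all genes were higher and 38.4% lower. The counts by class are to be read against the same shares. Of the 10 genes that cut the receptor, 6 were higher and 3 lower. Among the 6 were subunits of gamma-secretase, the protease that frees the intracellular part: Psenen (log2 1.31 ± 0.067), Psen2 (0.74), Aph1a (0.54), Aph1c (0.50) and Ncstn (0.47). Adam10, the sheddase that makes the preceding cut, was lower (-0.85 ± 0.114, adjusted p = 5.64e-05), as were Furin (-0.72) and the third Aph1 gene, Aph1b (-0.50). Of the 16 genes for the nuclear complex and its corepressors, 11 were lower and 2 higher. Crebbp, Kat2b, Maml2, Maml3, Tle2, Tle3 and Tle4 were among the lower ones. The corepressor Spen (-3.21 ± 0.175, adjusted p = 1.02e-07) and the acetyltransferase Ep300 (-1.79) were also lower, Rbpj itself, the DNA-binding partner, had -0.35 ± 0.0765 (adjusted p = 0.00195), and Snw1 (0.97) and Hdac1 (0.37) were higher.

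The remaining receptors were lower as well: Notch3 had -1.60 ± 0.189 (adjusted p = 2.22e-05) and Notch4 -0.76 ± 0.176 (adjusted p = 0.00267). Dll4 (0.57) and Dner (0.50) were higher. Of 11 tested ubiquitin and endocytic regulators, 6 were lower, among them Fbxw7 (-1.22), Numb (-0.92), an inhibitor of Notch, its relative Numbl (-0.63), Itch (-0.61) and Neurl1b (-0.44), and 2 higher, Mib2 (0.64) and Dtx4 (0.43). Poglut1 (0.81) and Pofut1 (0.30), which add the first sugars to the receptor, were higher, and Lfng and Rfng, relatives of Mfng, had -0.35 and -0.46 (adjusted p = 0.145 and 0.112). The feedback inhibitor Nrarp was lower (-1.83 ± 0.286, adjusted p = 0.00018) and Heyl higher (1.69 ± 0.209, adjusted p = 3.16e-05), both at under 3 TPM in every library.

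Total mRNA was compared between doses to ask whether folic acid changed the level of Notch mRNAs. No member was called in HF against MF (0.0863% of 13912 genes were), in LF against MF (0.00719%) or in HF against LF (1.79%), and DESeq2 called none of the 10 in these 3 comparisons either. At an unadjusted p under 0.05 there were 1 (Notch2), 2 (Notch1 and Mfng) and 5 (Notch2, Dll1, Mfng, Hes6 and Hey1), where 6.98%, 6.27% and 12.6% of all genes passed that threshold. The standard errors ran from 0.0425 to 0.183 on the log2 scale, and the median member change was -0.08, 0.02 and -0.12, against 0.00 over all genes.

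Notch2 came closest. Both HF libraries were below all 4 LF and MF libraries, and in HF against LF the log2 change was -0.24 ± 0.048 with adjusted p = 0.00926, but the fold of 1.18 was below the threshold of 1.2. It was called without total HF replicate 2 (log2 -0.31, adjusted p = 0.00167). In HF against MF it was -0.17 ± 0.0481 (adjusted p = 0.26). Mfng had 17.54 and 16.65 TPM in total LF, 15.48 and 13.92 in MF and 12.6 and 13.1 in HF. Its levels did not overlap between doses, lowest in HF, and HF against LF gave log2 -0.39 ± 0.105 (adjusted p = 0.0548); the call was made with a replicate block (-0.39, adjusted p = 0.0301) and without the filter on low counts (adjusted p = 0.0266). Dll1 had log2 -0.23 ± 0.0833 in HF against LF on counts (adjusted p = 0.209), and was called without total LF replicate 1 (-0.33, adjusted p = 0.0249), while its TPM was 35.5 and 36.06 in LF and 35.51 and 39.26 in HF. Counts and TPM of Dll1 thus went in different directions, and the cause was not tested. In HF against LF, 2 of 10 NSC markers were called higher (Fabp7 and Slc1a3), 1 of 6 tested oligodendrocyte lineage markers higher (Olig1) and 2 of 5 tested mural and mesenchymal markers lower (Pdgfrb and Tagln), and their part in these values was not tested.

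Polysome mRNA of HF was compared with MF to ask which Notch mRNAs were held on several ribosomes differently in excess folic acid. Dll1, Dll3, Mfng and Hes6 had lower values in HF, by 1.67-fold to 2.55-fold, but whether they passed depended on the LF libraries. In the fit of all 6 polysome libraries no member was called, nor was any of 13433 genes (0% called; 453 had an unadjusted p under 0.05 and DESeq2 called 20, of the members Mfng). When LF was left out of the fit, 4 members were called, all lower, and 3.1% of 13243 genes were called lower and 2.24% higher. The log2 fold changes of these 4 were alike in both fits, and their errors were smaller without LF. The biological coefficient of variation over the 6 polysome libraries, 0.231 in the fit of all doses, included the spread between the unequal LF libraries.

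Dll3 had 6.1 and 6.21 TPM in polysome MF, 2.19 and 2.37 in HF and 4.16 and 2.47 in LF. Both HF libraries were below every other polysome library, whereas total Dll3 was 3.85 and 3.43 TPM in MF and 3.21 and 3.08 in HF. The polysome change was log2 -1.35 ± 0.203 in the fit of HF and MF (adjusted p = 0.00542), and ± 0.296 with adjusted p = 0.948 in the fit with LF. Dll1 had 17.89 and 16.9 TPM in polysome MF, 7.68 and 10.16 in HF and 19.06 and 13.27 in LF. In TPM both HF libraries were the lowest, while in CPM, the scale of the counts tested, they held 13.8 and 17.8 against 31.0 and 31.1 in MF and 33.8 and 16.8 in LF, so that HF and LF overlapped. The change from MF was log2 -0.97 ± 0.159 (adjusted p = 0.00775), or adjusted p = 0.948 with LF in the fit.

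Mfng had 17.84 and 16.89 TPM in polysome MF, 7.35 and 6.39 in HF and 13.06 and 7.93 in LF. Its change was log2 -1.32 ± 0.175 (adjusted p = 0.00313), against adjusted p = 0.948 with LF in edgeR's fit and 0.0355 in DESeq2. Hes6 had 218.62 and 212.0 TPM in polysome MF, 135.65 and 120.82 in HF and 206.68 and 94.31 in LF. HF lay below MF without overlap, at log2 -0.74 ± 0.124 (adjusted p = 0.00901, or 0.948 with LF), but polysome LF replicate 2 was lower still. Leaving out either polysome LF library gave the same 4 calls, where 5.12% (without replicate 1) and 5.68% (without replicate 2) of all genes were called in either direction. The 1 LF library that remains adds no spread between replicates. These fits therefore nearly repeat the fit of HF and MF and are no further test of the 4 calls.

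Hes5, at 5.8 and 6.91 TPM in polysome MF and 4.7 and 2.71 in HF, had log2 -0.76 ± 0.558 in the fit with LF (adjusted p = 0.948) and was not called in either fit. Hey1 and Jag1 went the other way, at 0.45 ± 0.201 and 0.37 ± 0.214, again not called. For 7 members both HF libraries were below both MF libraries (Notch1, Dll1, Dll3, Mfng, Hes1, Hes5 and Hes6), and for 2 above (Jag1 and Hey1). Over all genes such separation occurred in 28.1% for lower and 26.5% for higher, and the median of the 10 members was -0.51 against 0.00 for all genes. For the other 51 pathway genes tested the median was -0.016. The members were chosen with earlier results of these data known, so their distance from all genes is a description and no test.

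The ratio of polysome to total mRNA, or translation efficiency (TE), was then compared between HF and MF. With all 12 libraries no member and no gene was called (0% of 14421; 599 had an unadjusted p under 0.05, and DESeq2 called 28 genes and no member). In the fit of MF and HF alone the same 4 members were called, all lower, where 0.864% of 14243 genes were called lower and 0.66% higher. TE was 2.23-fold lower for Mfng (log2 -1.16 ± 0.184, adjusted p = 0.016), 2.18-fold for Dll3 (-1.13 ± 0.237, adjusted p = 0.0391), 1.87-fold for Dll1 (-0.91 ± 0.174, adjusted p = 0.0305) and 1.58-fold for Hes6 (-0.66 ± 0.127, adjusted p = 0.0305). In the fit of all libraries their adjusted p was 0.799, 0.847, 0.982 and 0.982. Neither receptor was called in either fit, with Notch1 at -0.24 ± 0.466 and Notch2 at 0.11 ± 0.178.

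**Figure D4:**
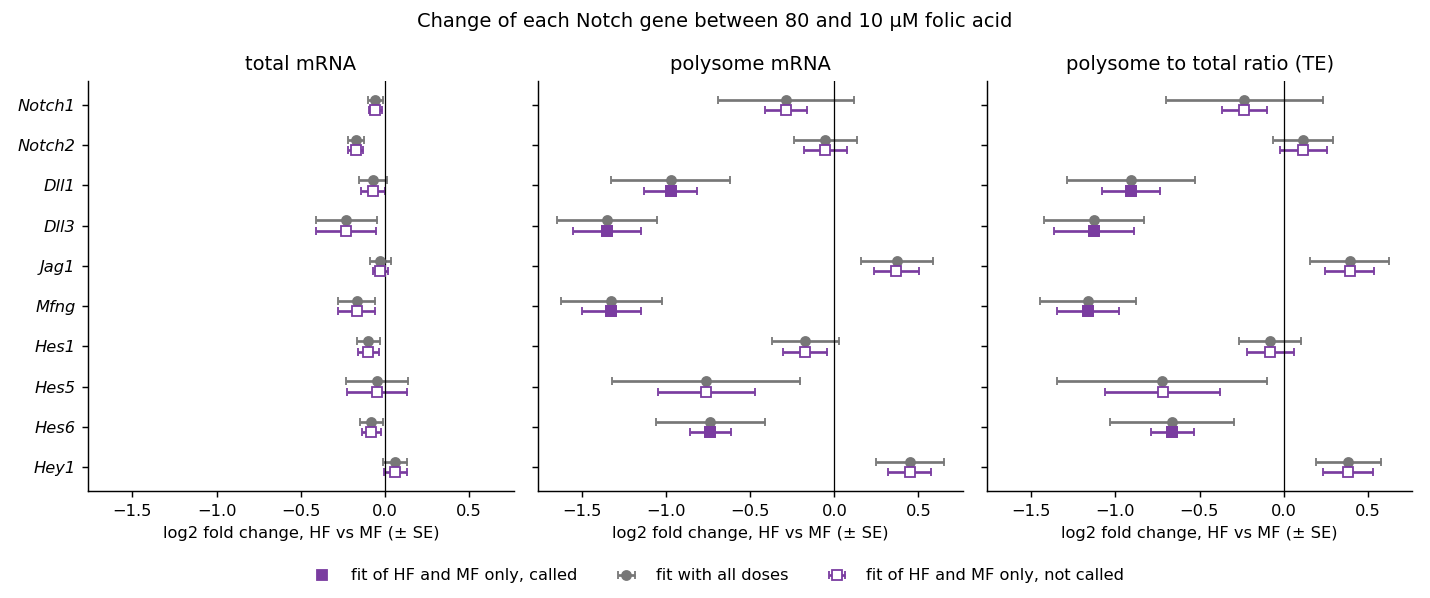
Log2 fold change of HF against MF (x axis) for each member in total mRNA, polysome mRNA and their ratio, from the fit with all doses (grey circles) and from the fit of HF and MF only (purple squares, filled where called), with bars of 1 standard error and 2 libraries per group. Total mRNA stays near 0, and Dll1, Dll3, Mfng and Hes6 are called lower in the other panels only in the fit without LF.

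Some other genes of the pathway were called in the fit of HF and MF alone. In polysome mRNA 5 of 51 were lower and 1 higher, where 3.1% of all genes were called lower and 2.24% higher. In TE 2 were lower, where 0.864% of all genes were called lower and 0.66% higher. Nrarp, which Notch switches on and which then limits it, had 1.23 and 1.13 TPM in polysome MF and 0.2 and 0.21 in HF, with 0.32 and 0.11 in LF (log2 -2.43 ± 0.424, adjusted p = 0.0096, or 0.948 with LF). The corepressor Tle2 and the ubiquitin ligase Neurl1b were also lower in polysomes, and the Notch ligand-like Dner was higher, from 10.11 and 9.72 TPM to 14.83 and 13.5. The median TE change of the 51 was 0.07. In the fit of all libraries the extremes of each class, none called, were Dner (0.70) and Jag2 (-0.76) among receptors and ligands, Poglut1 (0.31) and Lfng (-0.53) in glycosylation, Aph1c (0.45) and Aph1a (-0.28) in cleavage, and Itch (0.38) and Neurl1b (-0.60) in ubiquitin regulation. In the nuclear complex they were Snw1 (0.45) and Tle2 (-0.86), and among feedback targets Heyl (0.30) and Nrarp (-2.55).

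Markers of other cell types moved in the same polysome comparison. The 8 neuroblast and neuron markers summed to between 95.7 and 112 TPM in polysome MF and between 68.2 and 73.3 in HF, and of 6 tested in the fit of HF and MF 3 were called lower (Dcx, Tubb3 and Dlx2) and 1 higher (Stmn2). Dlx2 stood at 10.66 and 11.09 TPM in MF and 5.3 and 5.04 in HF. The 7 mural and mesenchymal markers summed to between 409 and 427 TPM in MF and between 628 and 750 in HF, with 3 of 5 called higher (Dcn, Tagln and Acta2). The 7 oligodendrocyte lineage markers summed to between 295 and 336 TPM in MF and 209 and 250 in HF, with 1 of 6 lower (Olig1). Of the 10 NSC markers 1, Fabp7, was called higher. Olig1 and Fabp7 passed edgeR's test narrowly (adjusted p = 0.0494 and 0.0405). Of all genes, 3.1% were called lower and 2.24% higher in polysome mRNA in this fit. None of these markers was called in polysome mRNA in the fit with LF. In total mRNA the neuronal sum was 182 to 187 TPM in MF and 177 to 195 in HF. The mural and mesenchymal sum was 102 to 111 TPM in total MF and 66.7 to 84.6 in total HF, and the oligodendrocyte lineage sum 377 to 398 and 408 to 432, each in the direction opposite to polysome mRNA. Pdgfrb was called lower in total mRNA in the fit of HF and MF alone (log2 -0.40, adjusted p = 0.0183) and not in the fit with LF (adjusted p = 0.161). The part of these markers in the members' values was not tested.

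Low folic acid was compared with MF in polysome mRNA and TE. No member was called in either (0.0223% of genes were called in polysome mRNA and 0.236% in TE), and at an unadjusted p under 0.05 there were 2 members in polysome mRNA (Dll3 and Mfng) and 4 in TE (Dll3, Mfng, Hes1 and Hey1). Of all genes 17.3% passed that threshold in polysome mRNA and 15.8% in TE. The LF libraries disagreed with each other. Notch1 had 32.89 and 11.49 TPM, Hes5 6.0 and 1.62, Hes6 206.68 and 94.31, and Dll1, Dll3 and Mfng were also lower in replicate 2. Hes1, by contrast, had 84.47 and 84.17 TPM in polysome LF, above the 62.0 and 63.25 of MF and the 58.14 and 50.95 of HF. Its polysome change in LF was log2 0.43 ± 0.2 (adjusted p = 0.311) and its TE change 0.44 ± 0.182 (adjusted p = 0.281). Mfng TE was -0.98 ± 0.284 (adjusted p = 0.179), and DESeq2 called it (log2 -0.96, adjusted p = 0.0229).

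Leaving out 1 polysome LF library decided these values. Without replicate 1, so that LF rested on replicate 2 alone, 8 members were called in LF against MF in polysome mRNA and 8 in TE, where 50.5% and 46.2% of all genes were called, with Notch1 at a TE change of -1.55, Hes6 at -1.25 and Hes1 at 0.48. Without replicate 2, none was called in polysome mRNA and 1 in TE, Mfng at -0.70 ± 0.189 (adjusted p = 0.0401), beside 6.83% and 6.76% of all genes. A group with 1 library is assumed in such a fit to vary as the others do.

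HF was also compared directly with LF. No member was called in polysome mRNA (0.0149% of genes called) or TE (0.0971%), and at an unadjusted p under 0.05 there was 1 member in each, Hes1 (polysome log2 -0.60 ± 0.201, adjusted p = 0.268; TE -0.52 ± 0.182, adjusted p = 0.216), beside 14% and 14.7% of all genes. DESeq2 called none. Hes1 was called lower in polysome mRNA without polysome LF replicate 1 or replicate 2 (log2 -0.66 and -0.57, adjusted p = 0.00349 and 0.0246), where 39.3% and 15.4% of all genes were called, and its LF libraries were nearly equal. Hes6 changed direction with the library left out, at a polysome log2 change of 0.42 without replicate 1 and -0.61 without replicate 2, both called.

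The genes whose pattern over the 12 libraries was closest to each member were found from log2 CPM centred on each gene's mean, as the smallest root mean square difference among the 9586 genes with at least 10 CPM on average. Notch1 was closest to Cep250 (0.118), Cul9 (0.121) and its relative Notch3 (0.141), and Notch2 to Kdm2a (0.0945), Rreb1 and St8sia1. Jag1 was closest to Clint1 (0.0797), to Adam17 (0.087), which encodes a protease that can shed Notch, and to Exoc6b. Dll3 was closest to Smoc1 (0.203), Gamt and Hes6 (both 0.207), and Mfng to Ahnak2 (0.208), which are the loosest matches. Hes1 was closest to Taf11 (0.0633), Hes5 to Epn1 (0.107) and Hey1 to Ppp1r15b (0.0971). Dll1 was closest to Troap (0.144) and Hes6 to March9 (0.11). All points share the fraction and the unequal LF libraries, so this likeness is a description.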

How the data were processed

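Total and polysome poly(A) mRNA had been sequenced with a stranded kit in 12 libraries. The authors trimmed the reads, aligned them to mm10 with Bowtie2 2.2.9 and estimated gene values with RSEM 1.3.0 in each library, giving the deposited expected counts. The deposited TPM values are the authors' RSEM levels scaled by effective length, whose column was used too. RSEM's strand setting and annotation release are not given in the sources used here. FPKM was not used.

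Expected counts were rounded and fitted with edgeR 4.0.16 (R 4.3.3, quasi-likelihood, TMM, filterByExpr, robust), with Benjamini-Hochberg adjustment over all genes tested, in fits of total mRNA (13912 genes), polysome mRNA (13433) and all 12 libraries (14421; the polysome to total ratio and its interaction with dose). Standard errors are the log2 change divided by the square root of F. A call needed an adjusted p under 0.05 and a fold over 1.2, the thresholds of the study. The scripts were tested on simulated data. Alternatives were DESeq2 1.42.0, RLE size factors, no filter beyond a count of 1, a replicate block, a fit of the compared doses alone, and leaving out each library. The members, gene lists and tests were chosen with earlier results of these data known. All 10 members are named. Pathway genes are named if called in any comparison or extreme in their class for the ratio in HF against MF, and otherwise counted, as are some of the many called between fractions; up to 3 nearest genes are named per member. Some pathway genes are not reported here. Counting intervals were not computed, since the errors come from replicate libraries.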

Additional observations from a re-analysis of the deposited data

Results flagged for a closer look

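Dll1, Dll3, Mfng and Hes6 were picked out because total and polysome mRNA changed differently between HF and MF by a test of the difference itself, the interaction of fraction and dose, in the fit of those doses alone. The log2 TE change was -0.906 for Dll1, -1.126 for Dll3, -1.16 for Mfng and -0.661 for Hes6. In the fit of all 12 libraries the adjusted p of these 4 was between 0.799 and 0.982.

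Mfng and Hey1 were picked out for LF against MF. Both LF libraries of Mfng were above both MF libraries in total mRNA and below them in polysome mRNA, with a TE change of -0.977. In CPM, Hey1 had the opposite pattern, at 37.1 and 35.5 in total LF against 37.8 and 39.5 in total MF, with a TE change of 0.487, but its total TPM values overlapped between LF and MF. The test of the difference did not pass for Mfng (adjusted p = 0.179) or Hey1 (adjusted p = 0.273) with edgeR, and DESeq2 called Mfng.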

How the results depend on the processing

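The 6 calls between polysome and total mRNA were made in all 16 other settings. For dose, the number of members called, 0 in each comparison as reported, was 1 for total HF against LF without the low-count filter and 1 with the replicate block. It was 1 with DESeq2 for polysome HF against MF and for TE LF against MF, and 4 for HF against MF in both polysome mRNA and TE in the fit of the compared doses only. Leaving out 1 library gave 0 to 1 members in total HF against LF, 0 to 4 in polysome and TE HF against MF, 0 to 8 in polysome and TE LF against MF, 0 to 5 in polysome HF against LF and 0 to 4 in TE HF against LF, and in polysome mRNA and TE the highest counts came without a polysome LF library. Hes6 in HF against LF ranged from -0.609 to 0.422 in polysome mRNA and from -0.458 to 0.585 in TE. Its polysome LF libraries held 206.68 and 94.31 TPM, on either side of HF at 135.65 and 120.82. The cause of the difference between the LF libraries was not tested. A group left with 1 library was assumed to vary like the others. Without a polysome LF library, calls over all genes rose too, in every polysome and TE dose comparison. The counts of members from those fits are to be read beside that rise. For HF against MF those fits nearly repeat the fit of the compared doses only, since 1 LF library adds no spread between replicates.

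Over all genes and settings that kept every library, calls ranged from 11 to 99 in total HF against MF, 1 to 50 in LF against MF and 147 to 421 in HF against LF, from 0 to 707, 3 to 636 and 2 to 335 in polysome mRNA, from 0 to 217, 4 to 632 and 2 to 702 in TE, and from 9029 to 11019 between fractions. Replicate differences correlated across genes between groups at -0.357 to 0.368, with both signs, and these values do not settle whether the replicate numbers pair the libraries. With the replicate block, calls over all genes rose from 3 to 231 in polysome LF against MF. In TE LF against MF they fell from 34 to 8. The replicate block changed Mfng in total HF against LF (adjusted p = 0.0301) and Hes6 between fractions (0.58, adjusted p = 0.0191), and no other member call. Notch1 with its overlapping genes added was an alternative chosen after seeing the data.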
